A study of Ovis aries with 6 samples.

Results

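Fast-fibre contractile genes encode the forms of myosin, troponin, tropomyosin, alpha-actinin and myosin-binding protein C that are typical of fast-twitch (type II) muscle fibres. Members were taken by gene symbol from the deposited count table: MYH1, MYH2, MYH4, MYL1, MYLPF, TNNC2, TNNI2, TPM1, ACTN3 and MYBPC2. Of these 10 symbols, 8 had a row, out of 23144 genes listed, and all 8 passed the filter for low counts that left 12506 genes to be tested. MYH1 and MYH2 had no row of their own and are not counted as members. The files list the fast myosins named heavy chain 2x and 2a as OMYHC2X and OMYHC2A, with MYH1 and MYH2 as their best BLAST hits, and those rows are given beside the members. The libraries came from the longissimus dorsi, the long muscle of the back, of 6 sheep, 3 of the breed Qianhua Mutton Merino (QHMM) and 3 of the breed Small Tail Han (STH). All were females 1 year of age kept in a shared environment, no treatment is named, and each animal gave 1 poly(A) RNA library. Per the methods, live weight was taken after fasting, before slaughter. The question is which genes differ between breeds that differ in growth and meat yield, so every difference is given as STH vs. QHMM.

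A muscle fibre shortens when myosin heads of the thick filament pull on the actin of the thin filament. In fast fibres the thick filament holds the heavy chains 2a, 2x and 2b with the light chains encoded by MYL1 (essential) and MYLPF (regulatory). Calcium binds to troponin C, which moves troponin I and tropomyosin off the myosin sites on actin, and the thin filaments are anchored at the Z-disc by alpha-actinin. Slow fibres carry most of these parts from other genes, such as OMYHCS, the slow myosin heavy chain of the files.

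Between 10982191 and 14334544 reads were counted on genes per library. Counts were scaled between libraries by edgeR's TMM method, whose factors ranged from 0.852 to 1.20 and were lowest in QHMM replicate 2 (0.852) and STH replicate 3 (0.853). The same pair of libraries lay apart from the other 4 on the second principal component, which held 19.1% of the variance, while the first (44.1%) separated the breeds. All 5 skeletal muscle markers with a row (ACTA1, CKM, DES, TTN and NEB) had at least 48775 reads in every library, as muscle tissue should. A gene was called when its FDR in edgeR's quasi-likelihood test was under 0.05 and its fold change exceeded 1.5 in either direction. This held for 3.45% of the genes tested, and for 1.83% with lower counts in STH.

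None of the 8 fast-fibre genes was called by edgeR, and in all 8 the fitted log2 fold change was negative. They ranged from -0.19 in TNNC2 to -1.02 in ACTN3, with a median of -0.32, where the median of all tested genes was 0.02 and 48.2% of them were negative. Before adjustment, 2 of the 8 had a p-value below 0.05 in edgeR, ACTN3 and MYL1, both lower in STH. Over all tested genes this held for 19.2% in either direction and 9.72% lower in STH. DESeq2 called ACTN3 alone, and limma-trend on RPKM called none. In ACTN3 and MYL1 every STH library lay below every QHMM library, which held for 11.7% of all tested genes. In the other 6 the breeds overlapped. In all 8 the highest STH value was that of replicate 3, so their common sign is not 8 separate observations. The median of the 8 moved to -0.13 without QHMM replicate 2, -0.21 without STH replicate 1 and -0.60 without STH replicate 3.

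**Figure D1:**
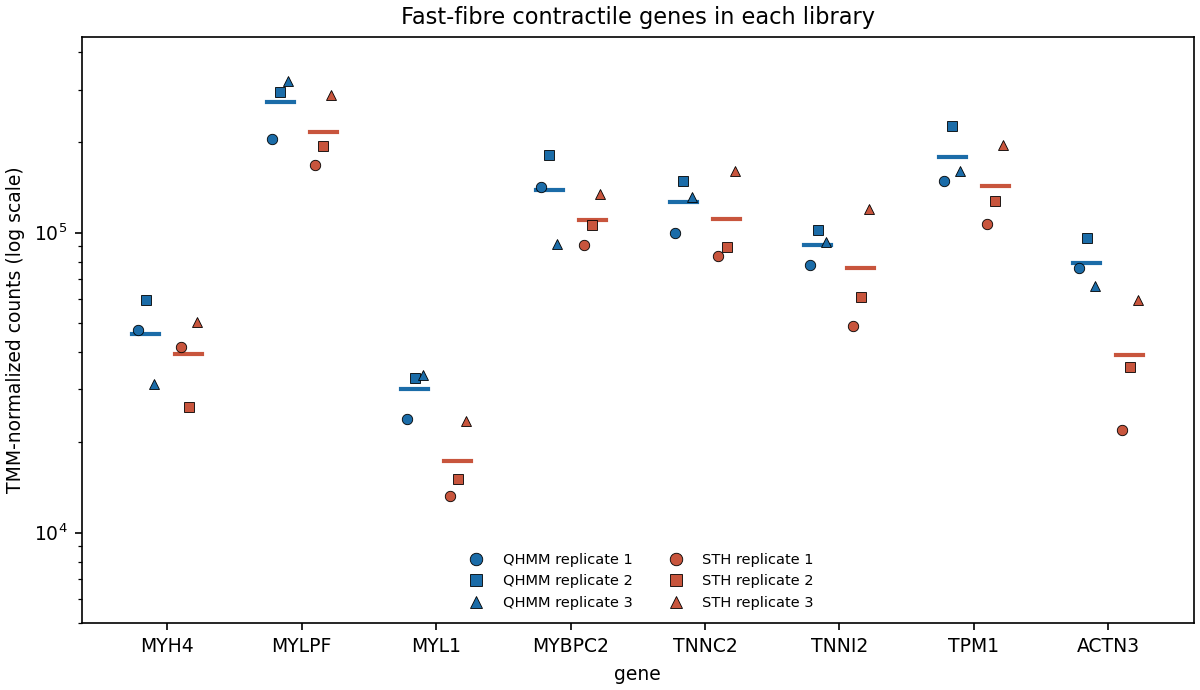
TMM-normalized counts (log axis) of the 8 fast-fibre contractile genes in each of the 6 libraries, with a line at the mean of each breed. The breeds are separate in MYL1 and ACTN3 and overlap in the other 6 genes, and STH replicate 3 has the highest STH value in all 8.

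The thick filament holds 4 of the genes. MYH4 encodes the fast heavy chain known as 2b in other mammals. Its TMM-normalized counts, in the order of replicates 1, 2 and 3, were 47186, 59457 and 31377 for QHMM and 41693, 26187 and 50326 for STH. The breeds overlapped widely, with 1 low library in each. Its log2 fold change was -0.22 (SE 0.33, 95% interval -0.95 to 0.51, FDR = 0.766), and without QHMM replicate 2 the sign changed, to 0.0080. It was -0.02 without STH replicate 2, -0.43 without QHMM replicate 3 and -0.44 without STH replicate 3. In the MYH4 row the best BLAST hit was MYH1, and MYH4 held 5.62% to 8.67% of the RPKM of OMYHC2X. The heavy chain genes are close copies and only unique mapped reads were counted. How reads were divided among the heavy chain rows, 2x and 2a included, is therefore uncertain.

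MYLPF, the regulatory light chain of fast myosin, was the member with the most reads. Its normalized counts were 204821, 294192 and 321236 for QHMM and 167554, 193855 and 288185 for STH. STH replicate 3 lay inside the QHMM range and the other STH libraries below it. The log2 fold change was -0.34 (SE 0.31, 95% interval -1.03 to 0.35, FDR = 0.605). It became -0.53 without QHMM replicate 1 and -0.59 without STH replicate 3, and -0.20 without either QHMM replicate 3 or STH replicate 1.

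MYL1 encodes the essential light chain of fast myosin. It had 23978, 32701 and 33582 normalized counts in QHMM and 13210, 15049 and 23553 in STH, and the breeds did not overlap. STH replicate 3 lay just under QHMM replicate 1. A mean of 30087 ± 5309 in QHMM (SD, n = 3) stood against 17271 ± 5518 in STH (n = 3). The fitted log2 fold change was -0.80 (SE 0.30, 95% interval -1.45 to -0.15). Its FDR in edgeR was 0.171, with an unadjusted p = 0.0209, so MYL1 did not pass.

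MYBPC2, the fast form of myosin-binding protein C, which lies in stripes along the thick filament, had 142100, 181272 and 91982 normalized counts in QHMM. The STH libraries had 90882, 106298 and 134511. QHMM replicate 3 fell among the STH values. The log2 fold change of -0.32 (SE 0.32, 95% interval -1.02 to 0.37) had an FDR of 0.626. It was -0.08 without QHMM replicate 2, -0.22 without STH replicate 1, -0.49 without STH replicate 3 and -0.55 without QHMM replicate 3.

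Of the thin filament genes, TNNC2 encodes the calcium-binding subunit of fast troponin. Its normalized counts were 99990, 148408 and 131422 for QHMM and 83426, 89301 and 161148 for STH. STH replicate 3 was the highest of the 6 libraries and the other STH libraries were the lowest. The log2 fold change was -0.19 (SE 0.32, 95% interval -0.90 to 0.53, FDR = 0.807). With a library left out it ran from -0.03 (STH replicate 1) to -0.55 (STH replicate 3), and QHMM replicate 3 was the only library whose loss moved it by less than 1.5 times (-0.16).

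TNNI2, the inhibitory subunit of fast troponin, followed the same order by breed: 78008, 102100 and 93262 normalized counts in QHMM and 48750, 60966 and 119456 in STH. Again STH replicate 3 was above all QHMM libraries and the other STH libraries below them. The log2 fold change was -0.25 (SE 0.35, 95% interval -1.03 to 0.52, FDR = 0.745). It was -0.73 without STH replicate 3, -0.16 without QHMM replicate 2, -0.13 without STH replicate 2 and -0.03 without STH replicate 1.

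TPM1 encodes alpha-tropomyosin, which lies along the actin filament and is also used by heart and smooth muscle. It had 149142, 227465 and 160674 normalized counts in QHMM and 106489, 127091 and 196423 in STH. STH replicate 3 lay inside the QHMM range. The log2 fold change was -0.32 (SE 0.32, 95% interval -1.02 to 0.38, FDR = 0.633). It was -0.11 without QHMM replicate 2, -0.16 without STH replicate 1 and -0.61 without STH replicate 3.

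ACTN3, the alpha-actinin of fast Z-discs, differed most. Its normalized counts were 75951, 95732 and 66570 for QHMM and 21960, 35772 and 59518 for STH. All STH libraries were below all QHMM libraries, with STH replicate 3 closest to them. The mean was 79418 ± 14887 in QHMM (SD, n = 3) and 39083 ± 18997 in STH (n = 3). The fitted log2 fold change was -1.02 (SE 0.36, 95% interval -1.83 to -0.22). This did not pass in edgeR (FDR = 0.155, unadjusted p = 0.0172). DESeq2 gave an FDR of 0.0303. STH replicate 3 decided the edgeR call: without it the log2 fold change was -1.46 with an FDR of 0.0425, and with any other library left out the gene was not called.

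**Figure D2:**
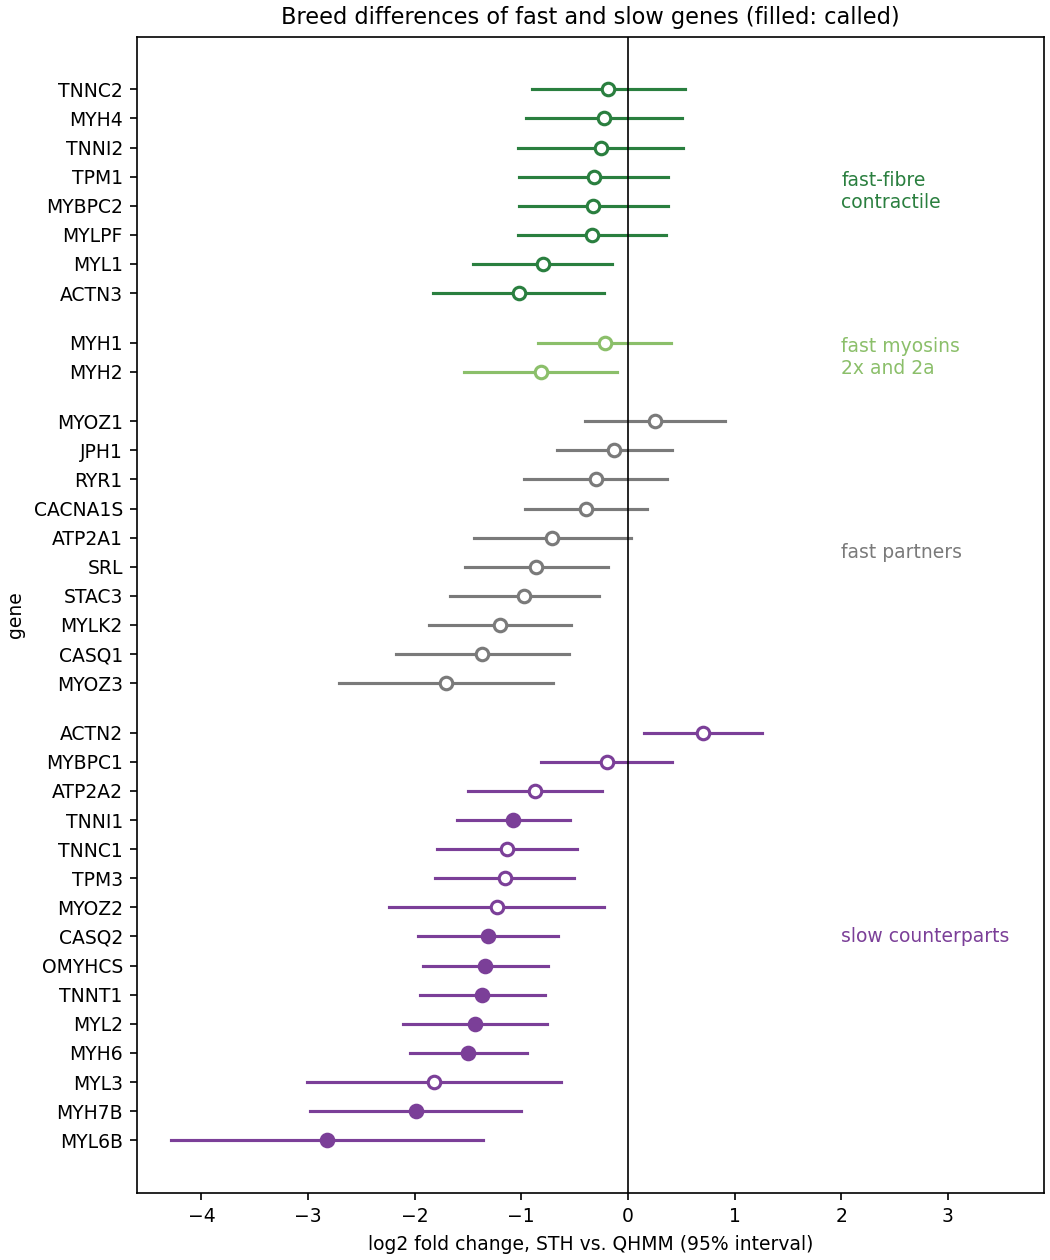
Log2 fold changes in STH vs. QHMM with 95% intervals from edgeR, filled where the gene was called, for the 8 fast-fibre genes, the fast myosins 2x and 2a (MYH1 and MYH2, listed as OMYHC2X and OMYHC2A), 10 other genes of fast fibres and of calcium handling and 15 slow counterparts. Only slow counterparts are filled, 8 of them, all below 0.

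The intervals of the 6 genes with overlapping breeds all spanned 0. Their lower bounds lay between -1.03 and -0.90 and their upper bounds between 0.35 and 0.53, so 3 animals per breed do not tell equal levels from differences up to those bounds. On the RNA of a whole muscle sample, fewer fibres of a type and less of the transcript per fibre cannot be told apart.

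Levels of different genes are compared here per length, as RPKM, and the order was much the same in every animal. MYLPF stood highest, with 23652 to 39021 RPKM over the 6 libraries, and was the gene with the second highest mean RPKM of the whole table. TNNC2 followed with 14204 to 19818, TPM1 with 11604 to 17646 and TNNI2 with 5937 to 10370. Each of these was above the next in all 6 libraries, although TNNC2 exceeded TPM1 by no more than 1.30-fold. MYBPC2 had 2074 to 3381 RPKM and was above MYL1 in 5 of 6 libraries. MYL1 (1062 to 2323) and ACTN3 (702 to 2179) could not be ordered, since MYL1 was higher in only 3 of 6 libraries. MYH4 was lowest, with 386 to 676, and was below ACTN3 in all 6.

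Some of these ratios differed by animal within narrow limits. The 2 light chains pair with the same heavy chain, yet MYLPF had 15.0, 15.8 and 16.8 times the RPKM of MYL1 in QHMM replicates 1, 2 and 3 and 22.3, 22.6 and 21.5 times in STH. This ratio was chosen after its values were seen; its breeds were separate. TNNC2 had 1.82, 2.06 and 2.0 times the RPKM of TNNI2 in QHMM and 2.42, 2.08 and 1.91 times in STH, with overlapping breeds. Both ratios rest on the gene lengths of the authors, 660 bases for MYLPF, 1159 for MYL1, 540 for TNNC2 and 765 for TNNI2, as implied by counts and RPKM.

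The 8 genes together took 6.47%, 7.57% and 7.46% of the reads counted on genes in QHMM and 5.35%, 5.62% and 6.86% in STH. Their 95% Wilson intervals extend 0.0146 percentage points or less each way and cover counting error only. STH replicate 3 held the largest share in its breed and QHMM replicate 2 in its own. On the normalized scale the geometric mean of the 8 genes was 85699, 116620 and 89404 counts in QHMM and 54667, 61362 and 100420 in STH, so the libraries with the lowest TMM factors stood highest in both breeds. The part of that in the breed difference was not tested.

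Dividing each gene by the geometric mean of all 8 in the same library removes whatever moves them together, the scaling included. On this relative log2 scale, ACTN3 was lower in STH by a mean of -0.65 and MYL1 by -0.36, and for each the libraries of the breeds were separate. The relative level of MYL1 was 0.04, 0.04 and 0.46 in QHMM and -0.17, -0.15 and -0.22 in STH. For ACTN3 it was 0.45, 0.34 and 0.20 in QHMM and -0.69, -0.16 and -0.13 in STH. Without QHMM replicate 3 the difference in MYL1 was -0.22. The other 6 genes differed by 0.11 to 0.24 on this scale, with overlapping breeds. For MYH4, MYLPF and TNNI2 the difference came down to 0.0019, 0.0087 and 0.0015 without STH replicate 1, QHMM replicate 1 and STH replicate 3, and for MYBPC2 it was -0.034 without QHMM replicate 3. In an exact two-sided permutation test, 3 animals against 3 cannot give a p below 0.1, which ACTN3 and MYL1 reached (Benjamini-Hochberg adjusted p = 0.4 over the 8 genes). A lower value of one gene raises the relative level of the others by construction.

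**Figure D3:**
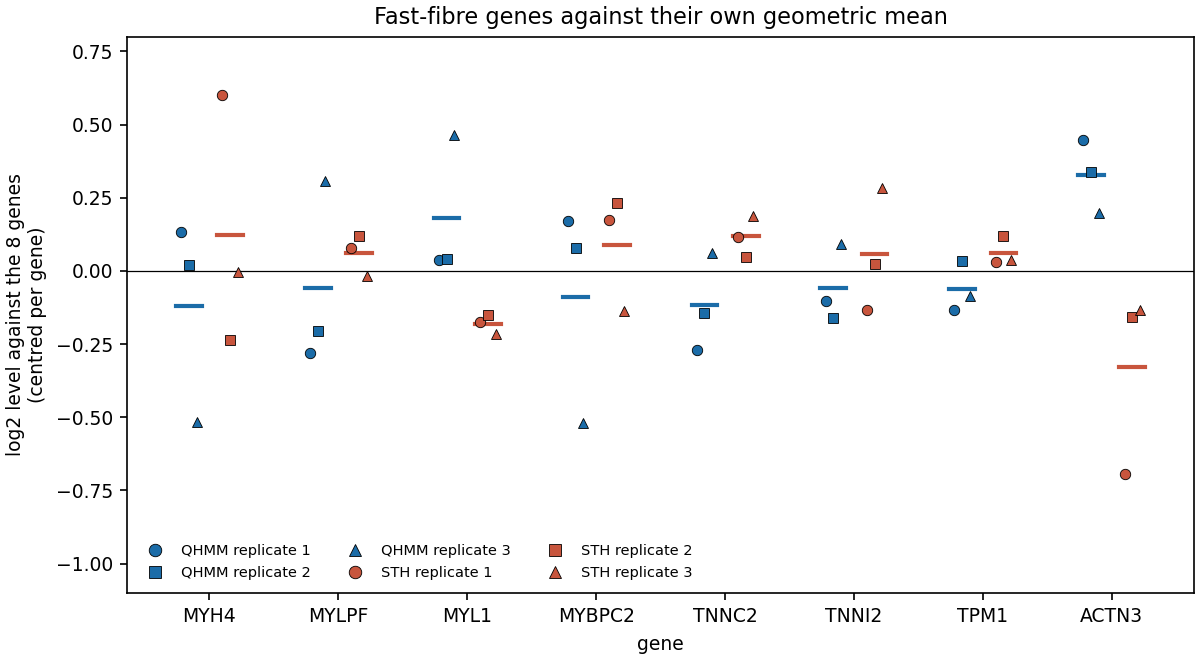
Log2 level of each fast-fibre gene against the geometric mean of the 8 genes in the same library, centred per gene, with a line at the mean of each breed. MYL1 and ACTN3 lie lower in all STH libraries, and TPM1 stays closest to 0.

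Over the 6 libraries, the thin filament genes and MYLPF kept the most constant proportions. Among the 28 pairs of the 8 genes, the SD of the log2 ratio was smallest for TNNC2 with TNNI2 (0.14), TNNC2 with TPM1 (0.15) and MYLPF with TNNC2 (0.15), and the median over pairs was 0.38. It was largest for MYH4 with ACTN3 (0.69). TPM1 followed the mean of the other 7 genes most closely (SD 0.11), and ACTN3 least (0.48). Outside the group, 4186 tested genes with a mean RPKM of at least 10 were set against the geometric mean of the 8. The smallest SD belonged to LPCAT3 (0.06), which encodes a lysophospholipid acyltransferase, MRPS12 (0.08) of the mitochondrial ribosome, NDUFA11 (0.09) of respiratory complex I, SNX19 (0.10) and RTN2 (0.10). The median of the 4186 was 0.49. These are descriptions over 6 libraries. Scaling between libraries cancels in such ratios, and the genes outside the group were picked for having the smallest SD of the 4186.

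The fast heavy chains 2x and 2a carried most of the myosin reads. Whether their breed differences differ from each other was not tested. OMYHC2X had 643616, 703801 and 573175 normalized counts in QHMM and 577536, 431668 and 645275 in STH. The breeds overlapped (log2 fold change -0.22, SE 0.28, FDR = 0.730). OMYHC2A had 180504, 295942 and 180001 in QHMM and 133251, 87226 and 152208 in STH, all STH libraries being lower. Its log2 fold change of -0.82 (SE 0.32) did not pass in edgeR (FDR = 0.20, unadjusted p = 0.0292). The RPKM of 2a was 0.278, 0.417 and 0.311 times that of 2x in QHMM and 0.229, 0.20 and 0.234 times in STH, and this ratio, which was chosen after its values were seen, also left the breeds separate.

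Of the RPKM of 4 adult heavy chains, the fast ones (OMYHC2X, OMYHC2A and MYH4) held 77.2%, 82.3% and 80.8% in QHMM and 89.0%, 86.3% and 90.8% in STH. All STH libraries were above all QHMM libraries. The mean was 80.1% ± 2.60 in QHMM (SD, n = 3) and 88.7% ± 2.27 in STH (n = 3), a difference of 8.58 percentage points that exceeds both SDs. OMYHC2X held 56.9% ± 2.20 in QHMM and 68.6% ± 0.444 in STH, MYH4 4.12% ± 0.727 and 4.95% ± 0.646, and OMYHC2A 19.0% ± 3.51 and 15.2% ± 1.30. The slow chain OMYHCS made up the rest, 19.9% ± 2.60 in QHMM and 11.3% ± 2.27 in STH, and was called lower in STH (log2 fold change -1.34, FDR = 0.0251). No test was made of these shares.

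**Figure D4:**
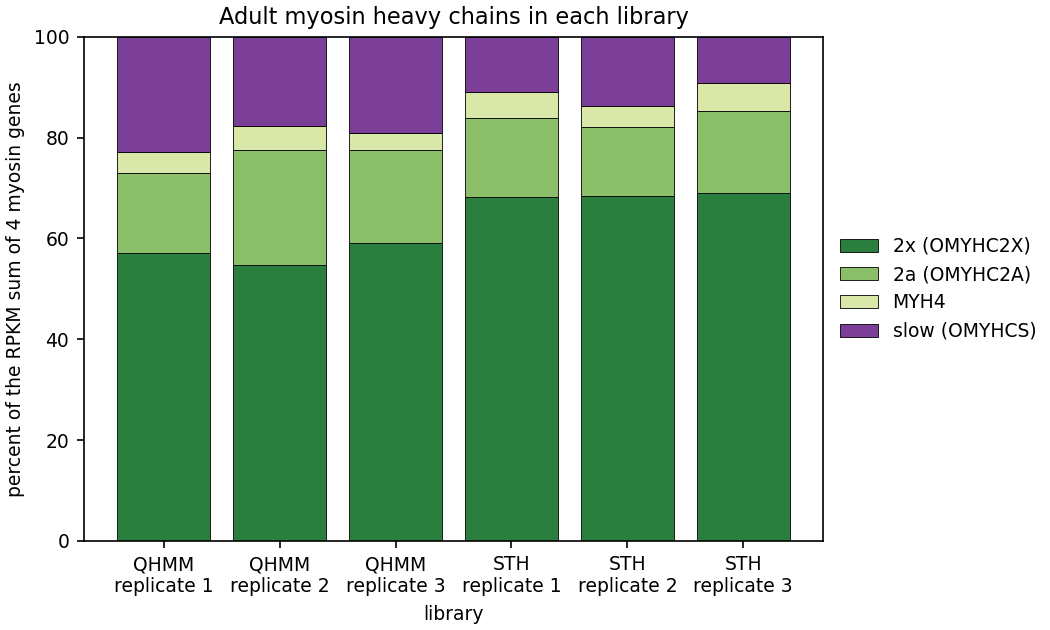
Percent of the RPKM sum of the 4 adult myosin heavy chain genes held by each, in each library. The slow chain takes 17.7% to 22.8% in QHMM and 9.22% to 13.7% in STH, and the 2x chain takes more in every STH library than in any QHMM library.

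Each fast-fibre gene was also set against its slow counterpart. Such a ratio is taken within 1 library and needs no scaling. Of 14 fast and slow partner pairs, 13 had reads for both genes, and 8 of these had a member as the fast gene. The ratio was higher in STH in 6 of the 8, and the breeds were separate in MYLPF/MYL2 and MYH4/OMYHCS. MYLPF/MYL2, the pair of regulatory light chains, had a log2 ratio of counts of 1.60, 2.45 and 2.21 in QHMM and 3.24, 2.55 and 3.87 in STH. The STH libraries were all higher, STH replicate 2 only narrowly, with a mean difference of 1.13. MYH4/OMYHCS differed by 1.10, TNNC2/TNNC1 by 0.92, MYL1/MYL3 by 0.94, TPM1/TPM3 by 0.78 and TNNI2/TNNI1 by 0.73, where TNNI1 is listed as LOC101112151. The breeds overlapped in each of these but MYH4/OMYHCS. Leaving out a library lowered MYL1/MYL3 to 0.45 (QHMM replicate 2) or 0.55 (STH replicate 1), TPM1/TPM3 to 0.45 (STH replicate 3) or 0.47 (QHMM replicate 3) and TNNI2/TNNI1 to 0.41 (STH replicate 3).

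ACTN3/ACTN2 went the other way. ACTN2 is the alpha-actinin of slow fibres, present in fast fibres as well, and it had 37078, 40934 and 38166 normalized counts in QHMM and 64138, 53426 and 71646 in STH. It was higher in every STH library, with a log2 fold change of 0.70 (SE 0.25) that missed the threshold in edgeR (FDR = 0.156). The log2 ratio of ACTN3 to ACTN2 was 1.03, 1.23 and 0.80 in QHMM and -1.55, -0.58 and -0.27 in STH. These are ratios of reads, and the length implied for ACTN2 (4693 bases) exceeds that for ACTN3 (2914). Per length, the RPKM of ACTN3 was 3.30, 3.77 and 2.81 times that of ACTN2 in QHMM and 0.551, 1.08 and 1.34 times in STH, so ACTN3 was the lower of the pair in STH replicate 1 only. The mean difference in the log2 ratio was -1.82. MYBPC2/MYBPC1 differed by -0.12, with overlapping breeds, and its sign changed in 3 of the 6 fits that left out a library. Over the 13 pairs, MYH1/OMYHCS (1.09) was the third whose breeds were separate and higher in STH. It shares its slow gene with MYH4/OMYHCS, so these ratios are not separate observations. OMYHCS was itself called lower in STH (log2 fold change -1.34), while MYH1 and MYH4 each had -0.22. The breeds overlapped in MYH2/OMYHCS (0.51), MYOZ1/MYOZ2, ATP2A1/ATP2A2 (0.14) and CASQ1/CASQ2 (-0.18). The ratio was higher in STH in 10 of the 13 pairs. The exact two-sided permutation p was at best 0.1, the smallest that 3 against 3 can give, and 0.325 after Benjamini-Hochberg adjustment over the 13 pairs, so no pair passed.

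**Figure D5:**
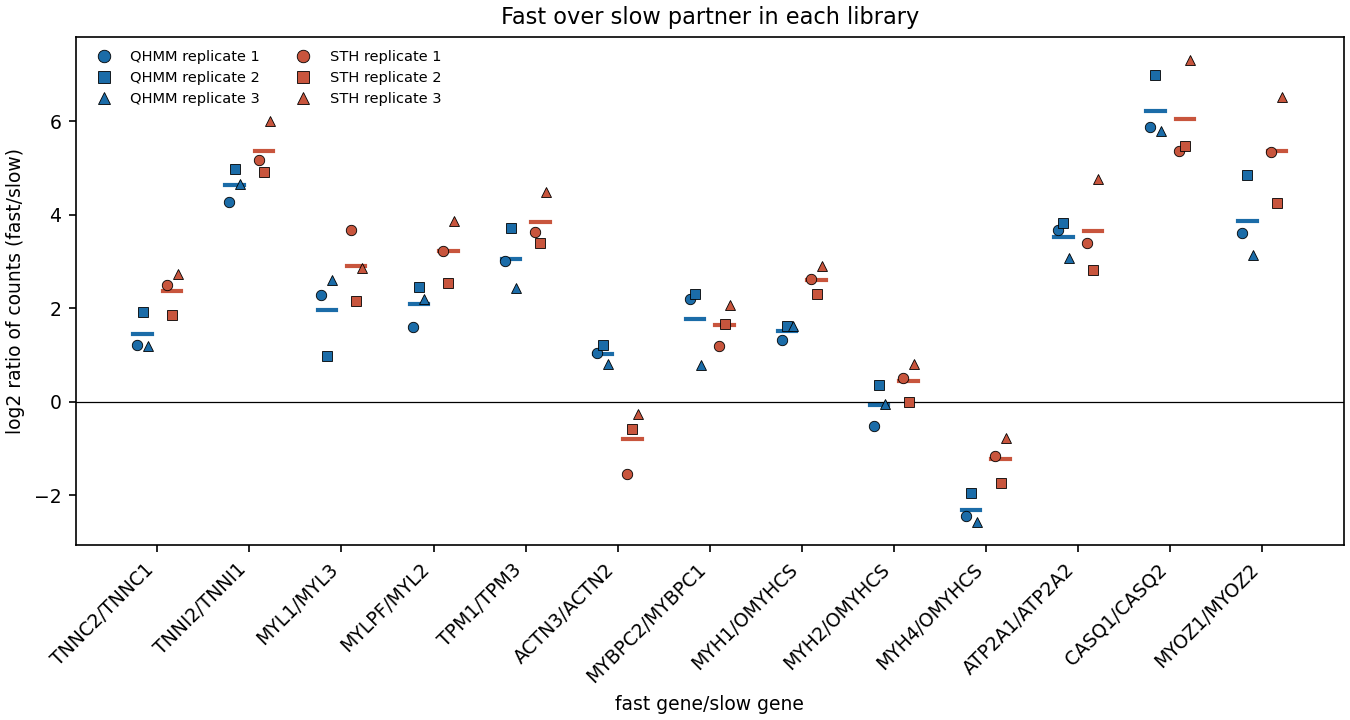
Log2 ratio of counts of a fast gene to its slow partner in each library, for 13 pairs, with a line at the mean of each breed. The breeds are separate and higher in STH for MYLPF/MYL2, MYH1/OMYHCS and MYH4/OMYHCS, and separate and lower in STH for ACTN3/ACTN2.

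The slow counterparts were 15 genes with a row, all tested. The median log2 fold change of the 15 was -1.31. None was called higher in STH and 8 were called lower, against 1.83% of all tested genes. The 8 are OMYHCS, MYH6, MYH7B, MYL2, MYL6B, TNNT1, CASQ2 and TNNI1, with values from -1.07 in TNNI1 to -2.82 in MYL6B. Among the others, TNNC1 had -1.14 (FDR = 0.0647), TPM3 -1.15 (FDR = 0.0603) and MYL3 -1.82 (FDR = 0.0951), and MYBPC1 had -0.20. The count for the 8 fast-fibre genes was 0 of 8; whether the 2 groups differ was not tested as groups.

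Other genes of fast fibres and of calcium handling were taken as a list of 12, of which 10 were tested. None was called by edgeR, 5 had an unadjusted p below 0.05, all of them lower in STH (9.72% of all tested genes), and the median log2 fold change was -0.78. The 5 are CASQ1, MYLK2, MYOZ3, STAC3 and SRL. CASQ1, the calcium-storing protein of fast fibres, had -1.37 (SE 0.37, FDR = 0.0714). MYLK2, the kinase that phosphorylates the regulatory light chain MYLPF, had -1.20 (SE 0.30, FDR = 0.0571). MYOZ3, a Z-disc protein, had -1.71 (FDR = 0.0683), STAC3, a partner of the calcium channel, -0.97 (FDR = 0.124), and SRL, sarcalumenin, -0.86 (FDR = 0.151). ATP2A1, the calcium pump of fast fibres, had -0.71 (FDR = 0.280). MYOZ1, a Z-disc protein of fast fibres, had 0.26 (FDR = 0.689). TNNT3, the third subunit of fast troponin, is listed at 0 in all 6 libraries. Since its partners TNNC2 and TNNI2 are among the most abundant genes, nothing can be read from that 0 about its level.

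Of 12 factors known to act on the fast or slow programme, all were tested. MYOD1, the myogenic factor that favours fast fibres, was called lower in STH (log2 fold change -2.61, FDR = 0.0292), and HDAC4, a histone deacetylase that represses MEF2 targets, was called higher (1.11, SE 0.26, FDR = 0.0475). Over all tested genes 3.45% were called in either direction. The median of the 12 was -0.18. In edgeR 3 of them had an unadjusted p below 0.05 and were lower in STH, and 2 were higher (19.2% of all tested genes in either direction). Besides MYOD1 and HDAC4 these are SOX6 (-0.78, FDR = 0.0582), NFIX (-1.09, FDR = 0.0550) and EYA4 (0.69, FDR = 0.177). Of 18 sarcomere genes not assigned to either fibre type, 3 were called, all higher in STH, against 3.45% of all tested genes in either direction. They are the cardiac alpha-actin ACTC1 (3.44, FDR = 0.0411), the actin filament protein LMOD2 (1.17, FDR = 0.0475) and FLNC, filamin C (1.92, FDR = 0.0457). ACTC1 had 430, 413 and 1917 normalized counts in QHMM and 13871, 2028 and 14121 in STH. Of the 18, 11 had a negative log2 fold change. Their median was -0.35, where that of the 8 fast-fibre genes was -0.32. In edgeR 3 had an unadjusted p below 0.05 and were lower in STH, and 3 were higher. ACTA1, skeletal alpha-actin and the partner of fast myosin, had -0.33 (SE 0.39, FDR = 0.689). In the list of thick filament assembly and turnover, 7 of 10 genes had a row and were tested. TRIM63 (3.52, FDR = 0.00489) and FBXO32 (2.68, FDR = 0.0433), ubiquitin ligases induced in atrophy, were called higher in STH. Over all tested genes 3.45% were called in either direction. None of the 7 tested genes for developing and regenerating fibres was called by edgeR, and all 7 had a negative log2 fold change. At an unadjusted p below 0.05 there were 2, both lower in STH (9.72% of all tested genes). They are MYOG, myogenin (-1.76, FDR = 0.0550), and MYH3. MYH3 and MYH8, the embryonic and neonatal heavy chains, had -0.79 (FDR = 0.172) and -0.55 (FDR = 0.422).

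Markers of other cells in the muscle were also compared. Of 6 adipocyte markers, ADIPOQ, PLIN1, CIDEC and LEP were called lower in STH, against 1.83% of all tested genes. LPL (-1.66, FDR = 0.0851) and FABP4 (-0.04, FDR = 0.980) were not called. Within QHMM, replicate 1 was the highest for all 6. The summed normalized counts of the 6 were 2111 to 7451 in QHMM and 905 to 1568 in STH. None of the tested markers of endothelium (3), fibroblasts (4), smooth muscle (5) and macrophages (5) was called by edgeR. In edgeR 1 fibroblast marker and 1 macrophage marker had an unadjusted p below 0.05, both lower in STH (9.72% of all tested genes). Summed counts of the fibroblast markers were 10907 to 17697 in QHMM and 4728 to 9715 in STH, lower in every STH library. Of these 4 markers, all with a negative log2 fold change, only COL1A1 (-1.30) had separate breeds (11.7% of all tested genes, lower in STH). Those of endothelium summed to 7282 to 7551 and 7841 to 9093, higher in every STH library. Here only VWF (0.40) had separate breeds, with 0.04 in PECAM1 and -0.22 in CDH5. Of all 12506 tested genes, 1626 were separate and higher in STH. The sums overlapped for smooth muscle, at 3558 to 8005 and 3965 to 6644, and for macrophages, at 1726 to 1942 and 843 to 2077. Of the blood markers, HBM was at 0 and ALAS2 had at most 9 reads. The part of these cells in the differences of the fast-fibre genes was not tested.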

How the data were processed

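RNA-seq of longissimus dorsi from 3 QHMM and 3 STH sheep was analysed, 1 library per animal, in 1 muscle and at 1 age. Sequencing was on an Ion Proton; per the methods the authors aligned reads to Oar 3.1 and used uniquely mapped ones, and they deposited whole counts per gene. The authors' second table holds RPKM. Over 13822 genes these RPKM equalled counts divided by a gene length and the library total, to a relative spread of 5.73e-06, with no further correction between libraries. The aligner, counting program, annotation release and use of strand are not given in the sources used here. Names changed into dates left 25 genes out of the RPKM table. The files give no positions.

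Counts were tested in R 4.3.3 with edgeR 4.0.16 (TMM, filterByExpr, glmQLFit and glmQLFTest, breed as the only term) over 12506 genes. FDR was adjusted by Benjamini-Hochberg over all of them, and a gene was called at an FDR below 0.05 with a fold change above 1.5 in either direction. EBSeq, which the study used, was not run. SE was obtained from the fold change and F, and 95% intervals from the t distribution of the fit. Ratios of counts were taken after adding 0.5. Alternatives used DESeq2 1.42.0, other scalings and filters, the replicate number as a block, limma-trend (limma 3.58.1) on log2(RPKM + 1) or log2(RPKM + 0.1), and leaving out each library. The scripts were tested on simulated counts. Plots were drawn with matplotlib 3.10.9. Shares and exact tests used SciPy 1.17.1.

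The members and lists were chosen with earlier results of these data known. By rule, the genes named are all members, called genes of the lists, the partners of the pairs, TNNT3, ACTA1 and the 5 genes closest in pattern. Named outside it, after their values were seen, are MYLK2, MYOZ3, STAC3, SRL, MYH3, MYH8, MYOG, SOX6, NFIX and EYA4. So are FABP4, LPL, COL1A1, VWF, PECAM1, CDH5, the other skeletal muscle markers and the blood markers. MYH1, MYH2 and TNNI1 were matched to OMYHC2X, OMYHC2A and LOC101112151 after the files were read. Replicates of a breed differed by far more than counting noise, and none was a repeat of another.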

Additional observations from a re-analysis of the deposited data

How the results depend on the processing

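The 10 other settings with all 6 libraries kept the negative sign of all 8 fast-fibre genes, and DESeq2 alone changed a call among them, calling 1 gene (ACTN3). With 1 library left out, 0 to 1 of the 8 was called. The log2 fold change of MYH4 then ranged from -0.44 to 0.0080. Scaling by library totals alone moved the median of all genes by 0.12; relative to it the median of the 8 genes was -0.36, against -0.35 with TMM. Over all genes, edgeR called 432 (203 higher and 229 lower in STH), DESeq2 973, edgeR without a filter 806, library totals alone 250 (158 higher, 92 lower) and limma-trend on log2(RPKM + 1) without a filter 78. Limma-trend with the filter called 212 higher and 134 lower. Leaving out 1 library gave 131 to 535. Leaving out QHMM replicate 2 and STH replicate 3 together, chosen after the data were seen, gave 11, none of the 8 among them, with a median of -0.49 for the 8. That fit had only 2 animals per breed. The cause of these changes was not tested. The fast share of heavy chain RPKM differed by 7.14 to 9.79 percentage points with 1 library left out, and by 13.7 with MYH4 as the only fast gene, which also was chosen after the data were seen. Among the ratios, MYBPC2/MYBPC1 ranged from -0.60 to 0.15, ATP2A1/ATP2A2 from -0.42 to 0.56 and CASQ1/CASQ2 from -0.81 to 0.20 with 1 library left out, and MYBPC2 against the 8 genes from -0.034 to 0.31. With the replicate number as a block, 457 genes and none of the 8 were called. The numbers did not pair the animals: the correlation of same-numbered libraries' deviations from their breed means was 0.226, -0.0380 and -0.130. Having 3 animals per breed and genes that share reads with close copies limit what can be read from the heavy chains.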
